A study of Homo sapiens with 4 samples.

Results

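The 40 genes described here encode the core machinery of autophagy and its cargo receptors. They were taken by gene name from the 57773 genes of the deposited tables, and all 40 names matched exactly 1 row each. Transcripts were sequenced in cells of the established line A2780, derived from a human ovarian tumour and labelled as ovarian adenocarcinoma and WT in all 4 libraries. Cells of the wogonin group (2 libraries, numbered 3 and 4) received this plant flavone at 10 ug/mL for 48 h. Cells of the DMSO group (2 libraries, numbered 1 and 2) received the solvent, and no treatment time is stated for them. The study asks whether wogonin restrains ovarian cancer through DNA demethylation, and its title places the kinase AMPK at the head of the proposed route.

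Autophagy encloses cytoplasm in a double membrane, the autophagosome, which then fuses with a lysosome. The ULK kinase complex starts the process, a class III PI3-kinase marks the membrane with PI3P, and PI3P-binding WIPI proteins bring in a conjugation machinery that links ubiquitin-like ATG8 proteins (the LC3 and GABARAP families) to lipid. Receptors such as SQSTM1 and NBR1 bind both cargo and ATG8 proteins. AMPK is known to phosphorylate ULK1 and to promote autophagy, whereas mTORC1 holds ULK1 inactive. Transcript levels measure neither these phosphorylations nor autophagic flux.

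Exon reads ranged from 11005921 to 11287570 in the wogonin libraries and from 11478731 to 11839562 in the DMSO libraries. The mitochondrial share of exon reads was 1.67% and 3.03% in wogonin 3 and 4, against 1.65% and 1.45% in DMSO 1 and 2. The intron share of reads was 7.96% and 5.61% in wogonin 3 and 4, against 5.26% and 5.29% in DMSO 1 and 2. Wogonin 3 thus stood apart in intron reads and wogonin 4 in mitochondrial reads, and results for the members are given with and without each. Of 12 ovarian and epithelial markers, 10 had at most 9 reads in every library, among them PAX8, WT1, MUC16, EPCAM, KRT8 and KRT18, while VIM and CDH2 were abundant. The epithelial markers were thus at or near 0 in cells labelled as adenocarcinoma. Of 4 fibroblast genes only COL3A1 was abundant, at 354 and 331 TPM in wogonin 3 and 4, against 474 and 448 TPM in DMSO 1 and 2. It made up most of the summed level of the 4, which was 358 and 335 TPM in wogonin 3 and 4, against 481 and 454 TPM in DMSO 1 and 2. COL1A1 lay between 2.88 and 5.56 TPM, and COL1A2 and DCN had at most 23 exon reads in every library. The part of these genes in the results was not tested. Of 5 leukocyte genes only CD68 exceeded 9 reads, and both endothelial genes found were at 0. Since no label ties the 2 libraries of a group to separate cultures, their spread, and with it every p-value, may be technical.

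Wogonin changed the autophagy transcripts in both directions, with more members lower than higher. Of the 39 members that passed the filter on low counts, 10 rose, 19 fell and 10 did not pass at a Benjamini-Hochberg adjusted p of 0.05 (edgeR quasi-likelihood test, 2-sided, adjusted over all 13449 genes tested). That is 25.6% higher and 48.7% lower, against 32.3% higher and 31.5% lower among all genes tested, so that 74.4% of the members and 63.8% of all genes were called. The median log2 ratio, the log2 of wogonin over DMSO as fitted by edgeR, was -0.22 for the members and -0.00066 for all genes. MAP1LC3A was the 1 member left out, with 0 reads in both wogonin libraries and 1 and 0 reads in DMSO 1 and 2. In 34 members the groups of libraries did not overlap, as in 81.9% of all genes. Wogonin lay above in 12 of them, as in 41% of all genes, and below in 22, as in 40.9% of all genes. Bulk RNA cannot tell fewer cells of a type from less RNA per cell. DESeq2 called 10 members higher and 12 lower, with 49.8% of all genes called. Without wogonin 3 the median log2 ratio was -0.137 for the members and -0.00252 for all genes. Without wogonin 4 these medians were -0.224 and -0.0128. They were -0.196 and -0.00267 without DMSO 1, and -0.185 and 0.00553 without DMSO 2.

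**Figure D1:**
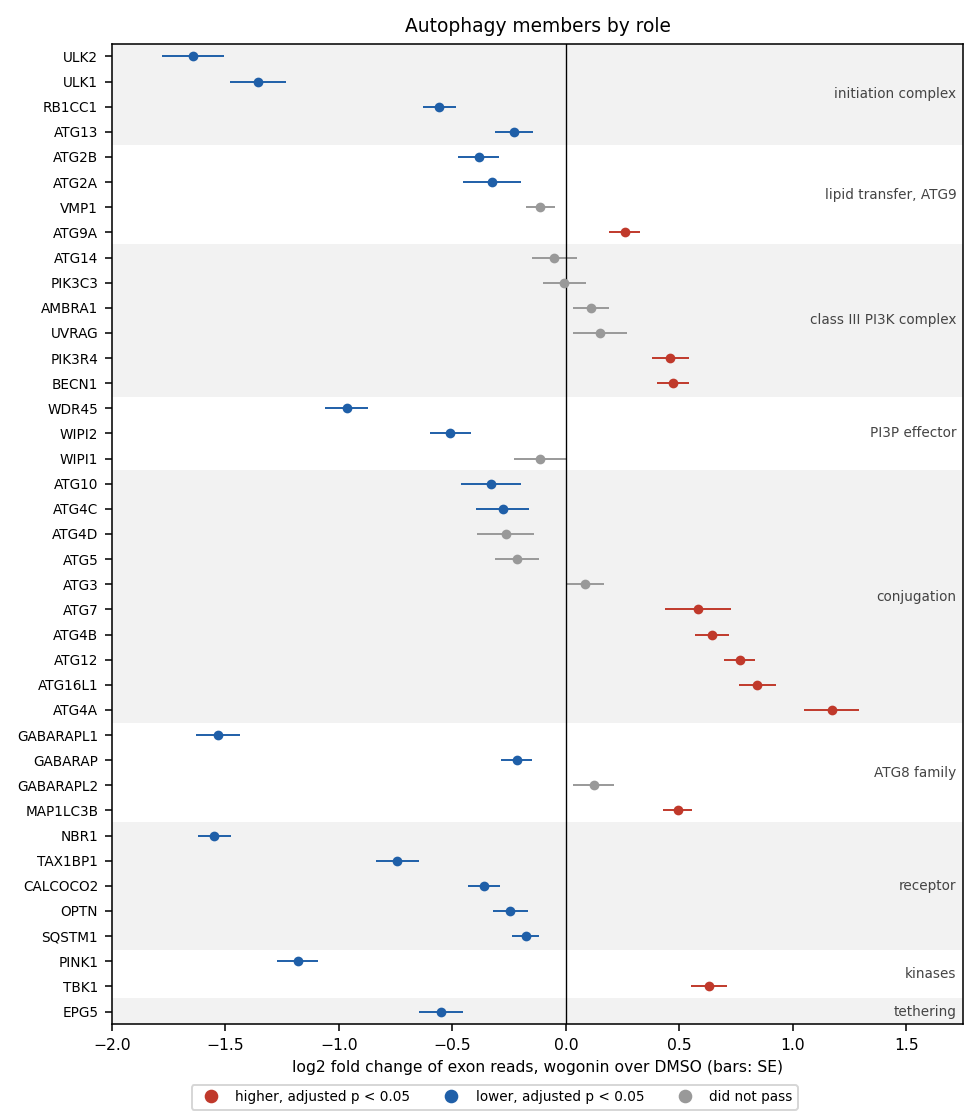
Log2 ratio of exon reads (wogonin over DMSO) on the horizontal axis for the 39 tested members, arranged by role, with bars for the standard error. Red members rose, blue members fell and grey members did not pass, and the initiation complex and the receptors hold blue points only.

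The changes reached 1 log2 unit in 6 members. ULK1, ULK2, GABARAPL1, NBR1 and PINK1 fell by at least that much, as did 9.94% of all genes tested, and ATG4A rose by that much, as did 6.31% of all genes. The promoter windows of these members are shown because they are the regions that transcription of the most changed members starts from. Each runs from 250 bases before to 50 bases after a RefSeq transcript start on GRCh38.p14, which is not the build of the count tables. PINK1 had no entry in the table of windows used, and NBR1 had 2. Both strands were searched for the E-box CACGTG, its longer form TCACGTGA, which contains the E-box and is the core of the element bound by TFEB, the forkhead site GTAAACA, the cyclic AMP response element TGACGTCA and the amino acid response element TGATGCAA. Matches are in capitals.
ULK1 (chr12:131894372-131894671, plus strand): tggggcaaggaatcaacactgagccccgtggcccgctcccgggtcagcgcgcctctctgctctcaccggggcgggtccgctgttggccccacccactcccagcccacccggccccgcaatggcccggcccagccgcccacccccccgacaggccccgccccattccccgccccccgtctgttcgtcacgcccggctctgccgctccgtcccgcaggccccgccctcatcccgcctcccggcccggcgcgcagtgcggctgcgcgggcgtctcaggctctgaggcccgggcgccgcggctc
ULK2 (chr17:19867887-19868186, minus strand): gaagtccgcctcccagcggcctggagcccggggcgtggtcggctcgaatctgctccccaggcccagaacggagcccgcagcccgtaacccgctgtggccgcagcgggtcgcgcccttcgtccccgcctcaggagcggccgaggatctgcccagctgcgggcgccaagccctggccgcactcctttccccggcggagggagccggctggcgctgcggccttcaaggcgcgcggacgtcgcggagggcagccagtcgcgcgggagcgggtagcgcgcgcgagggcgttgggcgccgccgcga
GABARAPL1 (chr12:10212627-10212926, plus strand): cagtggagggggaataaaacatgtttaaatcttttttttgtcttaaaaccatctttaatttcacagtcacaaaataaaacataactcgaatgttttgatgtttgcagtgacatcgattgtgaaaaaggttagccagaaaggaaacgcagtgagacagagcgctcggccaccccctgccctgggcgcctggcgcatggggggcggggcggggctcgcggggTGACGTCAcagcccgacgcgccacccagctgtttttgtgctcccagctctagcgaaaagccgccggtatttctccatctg
NBR1, first start (chr17:43170159-43170458, plus strand): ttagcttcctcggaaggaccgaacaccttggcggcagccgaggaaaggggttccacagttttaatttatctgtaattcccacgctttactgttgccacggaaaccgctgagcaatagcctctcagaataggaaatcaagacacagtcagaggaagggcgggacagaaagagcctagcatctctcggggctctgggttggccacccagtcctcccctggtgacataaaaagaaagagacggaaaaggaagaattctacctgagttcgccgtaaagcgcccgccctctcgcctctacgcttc
NBR1, second start (chr17:43170964-43171263, plus strand): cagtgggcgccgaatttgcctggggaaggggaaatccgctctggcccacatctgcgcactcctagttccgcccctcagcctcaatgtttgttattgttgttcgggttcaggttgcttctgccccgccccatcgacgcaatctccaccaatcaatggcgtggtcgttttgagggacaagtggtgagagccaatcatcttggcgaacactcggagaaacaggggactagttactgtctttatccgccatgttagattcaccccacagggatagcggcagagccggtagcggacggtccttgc
ATG4A (chrX:108091528-108091827, plus strand): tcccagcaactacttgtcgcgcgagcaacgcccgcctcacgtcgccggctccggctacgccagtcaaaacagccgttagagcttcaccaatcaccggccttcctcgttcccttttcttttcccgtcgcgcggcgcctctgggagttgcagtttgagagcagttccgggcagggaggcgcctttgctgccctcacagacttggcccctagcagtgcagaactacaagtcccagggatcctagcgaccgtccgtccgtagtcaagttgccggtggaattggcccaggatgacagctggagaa

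Of these 6 windows only that of GABARAPL1 held a match, the cyclic AMP response element TGACGTCA, which starts at base 221 of the window. That element was in 1.85% of all 35116 windows of the table and in 1 of the 43 windows of the 34 members that had any. The forkhead site GTAAACA was in 3.42% of all windows and in those of 2 members, WDR45 and CALCOCO2. The E-box was in 7.26% of all windows and in those of 3 members, ATG3, ATG14 and TBK1, with the longer form TCACGTGA in 0.98% of all windows and in that of ATG3. The amino acid response element was in 0.866% of all windows and in none of the members' windows. The GC content of the 6 windows ran from 51.7% in GABARAPL1 to 78.3% in ULK1, beside a median of 58.7% over all windows. A match is a description of the letters and does not show that a factor binds there.

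All 4 members grouped here as the ULK initiation complex fell, beside 31.5% lower among all genes tested. ATG101, a further subunit of that complex kept in the list of other machinery, went the other way. It rose by 0.31 in log2 ratio (SE 0.09, edgeR adjusted p = 0.0046) and was named after its value was seen. Its call was lost in junction reads, at 0.21, in unique gene reads, at 0.23, and without DMSO 1, at 0.27. ULK1, the kinase that starts autophagosome formation (ENSG00000177169, GRCh37 chromosome 12, 132379196 to 132407712), stood at 14.5 and 13.7 CPM in wogonin 3 and 4, against 39.7 and 32.6 CPM in DMSO 1 and 2 (exon reads scaled to library size with TMM factors). Both treated libraries lay far below both DMSO libraries, a log2 ratio of -1.36 ± 0.12 (SE; edgeR adjusted p = 8.5e-08). Its paralogue ULK2 (ENSG00000083290, chromosome 17, 19674142 to 19771249) was at 6.91 and 7.38 CPM in wogonin 3 and 4, against 22.9 and 21.8 CPM in DMSO 1 and 2, a log2 ratio of -1.64 ± 0.14 (edgeR adjusted p = 3.4e-08). RB1CC1, the scaffold of the complex also called FIP200, had 83.3 and 92.1 CPM in wogonin 3 and 4, against 123 and 135 CPM in DMSO 1 and 2, and fell by 0.56 in log2 ratio (SE 0.07, edgeR adjusted p = 6.3e-06). The adaptor ATG13 changed least, with a log2 ratio of -0.23 ± 0.08 (edgeR adjusted p = 0.026). Its call was lost with DESeq2 (adjusted p = 0.107) and without wogonin 3, DMSO 1 or DMSO 2, where edgeR values were -0.12, -0.20 and -0.27. In junction reads it was -0.37.

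Members that supply membrane and lipid to the growing autophagosome changed little. ATG2A and ATG2B, bridge-like proteins that carry lipids from the endoplasmic reticulum, fell by 0.33 and 0.38 in log2 ratio (edgeR adjusted p = 0.038 and 0.0014). The call of ATG2A was lost with DESeq2 and limma-voom and without wogonin 4 or DMSO 1, and its value was -0.14 without DMSO 1 and -0.51 without DMSO 2. ATG9A, the lipid scramblase of the seed vesicles, rose by 0.26 (SE 0.07, edgeR adjusted p = 0.0033), and by 0.17 with library totals or upper quartiles as the scaling. ATG9A shares 9219 bases on its own strand with ABCB6, which rose by 0.92. The scramblase VMP1 was at 121 and 125 CPM in wogonin 3 and 4, against 133 and 133 CPM in DMSO 1 and 2, and did not pass (log2 ratio -0.11, edgeR adjusted p = 0.13). With library totals or upper quartiles as the scaling its value was -0.21 and passed, at a median of -0.09 over all genes. It also passed in total and unique gene reads, which include introns, at -0.26 and -0.25.

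In the class III PI3-kinase group 2 of 6 members rose, none fell and 4 did not pass. The 33.3% higher are near the 32.3% of all genes, and the 33.3% called lie below the 63.8% of all genes. BECN1, the Beclin 1 scaffold (ENSG00000126581, chromosome 17, 40962152 to 40985367), had 117 and 109 CPM in wogonin 3 and 4, against 80.2 and 82.6 CPM in DMSO 1 and 2, a log2 ratio of 0.47 ± 0.07 (edgeR adjusted p = 2.1e-05). The groups did not overlap. BECN1 overlaps PSME3 on the opposite strand by 8966 bases, and 75.1% of its exon reads were uniquely placed. In those reads its value was 0.45, and in reads across exon junctions it was 0.47. PIK3R4, the regulatory subunit VPS15, rose by 0.46 (SE 0.08, edgeR adjusted p = 1.2e-04). The catalytic subunit PIK3C3, or VPS34, was at 33.2 and 32.8 CPM in wogonin 3 and 4, against 32.9 and 33.4 CPM in DMSO 1 and 2 (log2 ratio -0.0068 ± 0.09, edgeR adjusted p = 0.96). ATG14 and UVRAG, which define alternative forms of the complex, and the BECN1 regulator AMBRA1 had log2 ratios of -0.05, 0.15 and 0.11.

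Among the PI3P-binding proteins WDR45 and WIPI2 fell and WIPI1 did not pass. WDR45, or WIPI4, which binds ATG2 (ENSG00000196998, chromosome X, 48929385 to 48958108), stood at 24.0 and 23.8 CPM in wogonin 3 and 4, against 45.5 and 47.8 CPM in DMSO 1 and 2, a log2 ratio of -0.97 ± 0.10 (edgeR adjusted p = 2.1e-07). It shares 2346 bases with PRAF2 on the same strand, and 52.8% of its exon reads were uniquely placed, with a value of -0.97 in those reads. WIPI2, which recruits ATG16L1, had 61.6 and 53.7 CPM in wogonin 3 and 4, against 87.4 and 76.6 CPM in DMSO 1 and 2, and fell by 0.51 in log2 ratio (SE 0.09, edgeR adjusted p = 1.4e-04). The value of WIPI1 was -0.11 (edgeR adjusted p = 0.41).

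Of the 10 genes of the conjugation machinery 5 rose, 2 fell and 3 did not pass. These are 50% higher and 20% lower, beside 32.3% and 31.5% of all genes. The 70% called are near the 63.8% of all genes. ATG4A, a protease that processes ATG8 proteins (ENSG00000101844, chromosome X, 107334898 to 107397901), had 34.8 and 32.5 CPM in wogonin 3 and 4, against 13.2 and 16.6 CPM in DMSO 1 and 2, a log2 ratio of 1.17 ± 0.12 (edgeR adjusted p = 3.7e-07). Of its exon reads 63.5% were uniquely placed, with a value of 1.00 in those reads. Its paralogue ATG4B stood at 89.2 and 89.5 CPM in wogonin 3 and 4, against 56.7 and 57.8 CPM in DMSO 1 and 2 (log2 ratio 0.64 ± 0.07, edgeR adjusted p = 1.2e-06). The other two proteases of this family went the other way in sign, with -0.28 for ATG4C (edgeR adjusted p = 0.047) and -0.27 for ATG4D (edgeR adjusted p = 0.073). The call of ATG4C was lost in 7 of 16 other settings, with a value of -0.18 without DMSO 2.

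ATG12 and ATG16L1, which together with ATG5 form the complex that attaches ATG8 proteins to lipid, both rose. ATG16L1 (ENSG00000085978, chromosome 2, 234118697 to 234204320) was at 67.7 and 67.3 CPM in wogonin 3 and 4, against 36.7 and 38.5 CPM in DMSO 1 and 2, a log2 ratio of 0.84 ± 0.08 (edgeR adjusted p = 1.9e-07). ATG12 (ENSG00000145782, chromosome 5, 115163893 to 115177555) was at 136 and 146 CPM in wogonin 3 and 4, against 83.0 and 83.4 CPM in DMSO 1 and 2, a log2 ratio of 0.76 ± 0.07 (edgeR adjusted p = 7.0e-08). In reads that cross exon junctions, a count chosen after seeing the data, ATG12 had 216 and 164 reads in wogonin 3 and 4, against 166 and 186 in DMSO 1 and 2. The log2 ratio of ATG12 was 0.27 in junction reads and did not pass (edgeR adjusted p = 0.115).

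ATG5 itself had 31.8 and 35.3 CPM in wogonin 3 and 4, against 37.4 and 40.5 CPM in DMSO 1 and 2, and did not pass (log2 ratio -0.22 ± 0.10, edgeR adjusted p = 0.063). It passed as lower in 6 of 16 other settings. ATG7, the E1-like enzyme that activates ATG12 and the ATG8 proteins, had 18.9 and 19.5 CPM in wogonin 3 and 4, against 10.8 and 14.8 CPM in DMSO 1 and 2, and rose by 0.58 (SE 0.15, edgeR adjusted p = 0.0025). Without DMSO 1 its value was 0.36 and the call was lost (edgeR adjusted p = 0.065). Of the E2-like enzymes, ATG10 fell by 0.33 (edgeR adjusted p = 0.036, lost in 8 of 16 other settings) and ATG3 had a value of 0.08 (edgeR adjusted p = 0.40).

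**Figure D2:**
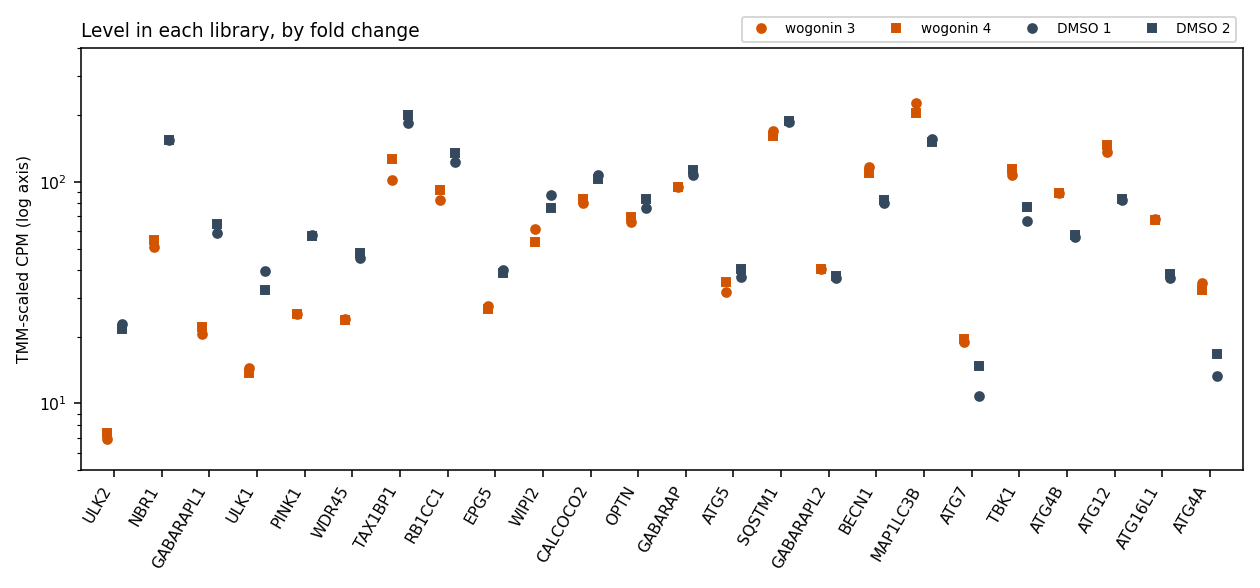
Level of the 24 tested members given by library (TMM-scaled CPM, log axis), ordered by log2 ratio, with wogonin 3 and 4 in orange to the left and DMSO 1 and 2 in dark blue to the right. NBR1 lies at 50.9 and 54.8 CPM in wogonin, against 154 and 155 CPM in DMSO, and ATG4A at 34.8 and 32.5 CPM in wogonin, against 13.2 and 16.6 CPM in DMSO.

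The ATG8 family changed in opposite directions. GABARAPL1 (ENSG00000139112, chromosome 12, 10365057 to 10375727) stood at 20.6 and 22.0 CPM in wogonin 3 and 4, against 58.5 and 64.8 CPM in DMSO 1 and 2, a log2 ratio of -1.53 ± 0.10 (edgeR adjusted p = 1.7e-09). MAP1LC3B, the commonly assayed LC3 (ENSG00000140941, chromosome 16, 87417601 to 87438385), was at 227 and 204 CPM in wogonin 3 and 4, against 155 and 152 CPM in DMSO 1 and 2, a log2 ratio of 0.49 ± 0.06 (edgeR adjusted p = 5.4e-06). In both genes the treated libraries lay apart from the DMSO libraries, below for GABARAPL1 and above for MAP1LC3B.

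GABARAP had 94.45 and 94.96 CPM in wogonin 3 and 4, against 107 and 113 CPM in DMSO 1 and 2, and fell by 0.22 in log2 ratio (SE 0.07, edgeR adjusted p = 0.011). That call was lost with DESeq2 (adjusted p = 0.056) and without DMSO 2 (edgeR adjusted p = 0.077). Another gene on the same strand, CTD-2545G14.7, shares 2344 bases with GABARAP and had 0 exon reads. Of the GABARAP exon reads 6.14% were uniquely placed, and the value in those reads was -0.52. GABARAPL2 was at 40.5 and 40.4 CPM in wogonin 3 and 4, against 36.9 and 37.4 CPM in DMSO 1 and 2, and did not pass (log2 ratio 0.12, edgeR adjusted p = 0.25). Per length of exon, the deposited TPM of the family summed to 475 and 436 in wogonin 3 and 4, against 500 and 525 in DMSO 1 and 2. MAP1LC3B made up 35.9% and 33.3% of that sum in wogonin 3 and 4, against 24.8% and 23.5% in DMSO 1 and 2. GABARAPL1 made up 4.24% and 4.68% in wogonin 3 and 4, against 12.1% and 13.1% in DMSO 1 and 2.

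All 5 cargo receptors among the members fell, beside 31.5% lower among all genes tested. The falls of OPTN and SQSTM1 were small and did not pass with DESeq2. Of the 20 other receptors listed further below, 8 rose and 6 fell. NBR1, a receptor for ubiquitylated cargo (ENSG00000188554, chromosome 17, 41322498 to 41363708), had the smallest adjusted p of all members. It stood at 50.9 and 54.8 CPM in wogonin 3 and 4, against 154 and 155 CPM in DMSO 1 and 2, a log2 ratio of -1.55 ± 0.07 (edgeR adjusted p = 4.9e-11). TAX1BP1 (ENSG00000106052, chromosome 7, 27778950 to 27884183), which joins NBR1 on protein aggregates, had 102 and 127 CPM in wogonin 3 and 4, against 184 and 199 CPM in DMSO 1 and 2, and fell by 0.74 in log2 ratio (SE 0.09, edgeR adjusted p = 6.2e-05). The 2 treated libraries of TAX1BP1 differed more than those of NBR1 but stayed below both DMSO libraries.

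CALCOCO2, also called NDP52, which acts on bacteria and damaged mitochondria, had 80.1 and 84.1 CPM in wogonin 3 and 4, against 107 and 103 CPM in DMSO 1 and 2 (log2 ratio -0.36 ± 0.07, edgeR adjusted p = 2.9e-04). OPTN, a receptor in mitophagy, had 65.8 and 69.1 CPM in wogonin 3 and 4, against 76.5 and 83.3 CPM in DMSO 1 and 2 (log2 ratio -0.24 ± 0.08, edgeR adjusted p = 0.011). SQSTM1, or p62, the best known receptor, was at 170 and 161 CPM in wogonin 3 and 4, against 187 and 188 CPM in DMSO 1 and 2 (log2 ratio -0.18 ± 0.06, edgeR adjusted p = 0.016). The calls of OPTN and SQSTM1 were small and were lost with DESeq2 (adjusted p = 0.062 for both), OPTN also without wogonin 3 or DMSO 2, and SQSTM1 also in junction reads and without wogonin 4, DMSO 1 or DMSO 2. With library totals or upper quartiles as the scaling SQSTM1 was at -0.27. In deposited TPM the 5 receptors summed to 251 and 250 in wogonin 3 and 4, against 391 and 411 in DMSO 1 and 2. SQSTM1 held 35.2% and 31.8% of that sum in wogonin 3 and 4, against 26.4% and 25.7% in DMSO 1 and 2, and NBR1 held 9.59% and 9.81%, against 19.8% and 19.4%.

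**Figure D3:**
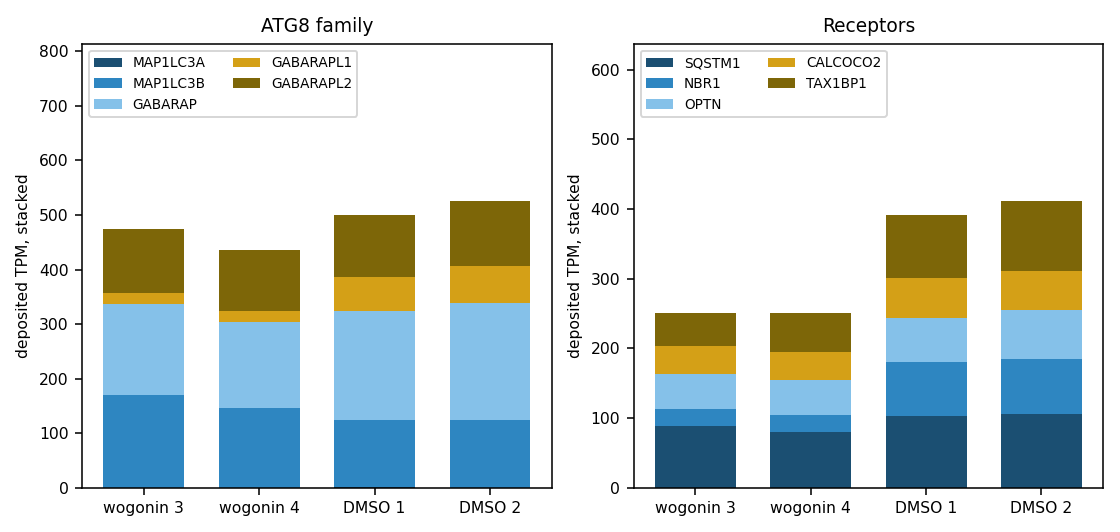
Deposited TPM (exon reads per length and library) of the ATG8 family on the left and of the 5 receptors on the right, stacked for wogonin 3, wogonin 4, DMSO 1 and DMSO 2. The receptors sum to 251 and 250 TPM in the wogonin libraries, against 391 and 411 TPM in the DMSO libraries, and MAP1LC3A is too low to be seen.

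The kinases TBK1 and PINK1, which act on receptors and on mitochondria, changed in opposite directions. TBK1, which phosphorylates OPTN (ENSG00000183735, chromosome 12, 64845660 to 64895888), was at 108 and 115 CPM in wogonin 3 and 4, against 66.7 and 77.2 CPM in DMSO 1 and 2, a log2 ratio of 0.63 ± 0.08 (edgeR adjusted p = 4.1e-06). PINK1, which marks damaged mitochondria (ENSG00000158828, chromosome 1, 20959948 to 20978004), was at 25.3 and 25.4 CPM in wogonin 3 and 4, against 57.6 and 57.3 CPM in DMSO 1 and 2, a log2 ratio of -1.18 ± 0.09 (edgeR adjusted p = 1.3e-08). PINK1-AS overlaps PINK1 on the opposite strand by 8855 bases and rose by 1.29. The strand setting of the counts is not given in the sources used here, so reads of the pair in shared bases cannot be told apart. In uniquely placed exon reads, 52.7% of the PINK1 total, the PINK1 value was -1.60, and in junction reads it was -1.57. EPG5, which tethers autophagosomes to lysosomes, had 27.4 and 26.6 CPM in wogonin 3 and 4, against 40.1 and 38.9 CPM in DMSO 1 and 2, and fell by 0.55 in log2 ratio (SE 0.10, edgeR adjusted p = 9.8e-05).

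Levels of different members can be compared in deposited TPM, which divides by the length of all annotated exons of a gene and so understates genes with long exons that are rarely used. In wogonin the highest means were 162 ± 5.50 TPM for GABARAP, 158 ± 17.8 TPM for MAP1LC3B and 115 ± 4.59 TPM for GABARAPL2 (SD, n = 2). In DMSO the highest were 208 ± 9.85 TPM for GABARAP, 130 ± 1.57 TPM for VMP1 and 124 ± 0.49 TPM for MAP1LC3B (SD, n = 2). Leaving MAP1LC3A aside, the lowest mean was that of ULK2 in wogonin, at 3.97 ± 0.0348 TPM, against 13.7 ± 0.293 TPM in DMSO. In wogonin GABARAP and MAP1LC3B did not differ beyond their spread.

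Intron reads gave a second, sparser count of the same genes in the same libraries. Of the 36 members with enough intron reads, none was called higher, 2 were lower and 34 did not pass, against 11.3% higher and 8.82% lower, or 20.1% in all, among the 10495 genes tested (edgeR). ULK1 had 8 and 2 intron reads in wogonin 3 and 4, against 21 and 12 in DMSO 1 and 2, a log2 ratio of -2.03 ± 0.56 (edgeR adjusted p = 0.019). VMP1, whose exon reads did not pass, had 151 and 122 intron reads in wogonin 3 and 4, against 247 and 253 in DMSO 1 and 2, a log2 ratio of -1.17 ± 0.24 (edgeR adjusted p = 0.0036). The microRNA gene MIR21 lies inside VMP1 on the same strand, and its own row held 0 exon reads in all 4 libraries.

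Both intron calls were lost without DMSO 1, where VMP1 was at -1.17 (edgeR adjusted p = 0.106) and ULK1 at -1.58 (edgeR adjusted p = 0.422). That of VMP1 was also lost without DMSO 2 (edgeR adjusted p = 0.0954), and that of ULK1 with DESeq2 (adjusted p = 0.119). Without wogonin 3, the library with the high intron share, 5 members were higher and 5 lower in intron reads, with 31.7% of all genes called. Without wogonin 4 these were 3 higher and 7 lower, with 35.2% called. Of the 27 members with an exon call and an intron value, 22 had the same sign in both, or 81.5%, and over all genes this was 71.7% (4450 of 6210). Exon and intron reads share their libraries, so this is a description. NBR1 had 19 and 14 intron reads in wogonin 3 and 4, against 20 and 34 in DMSO 1 and 2 (log2 ratio -1.01, edgeR adjusted p = 0.084). PINK1 had an intron value of -0.05.

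**Figure D4:**
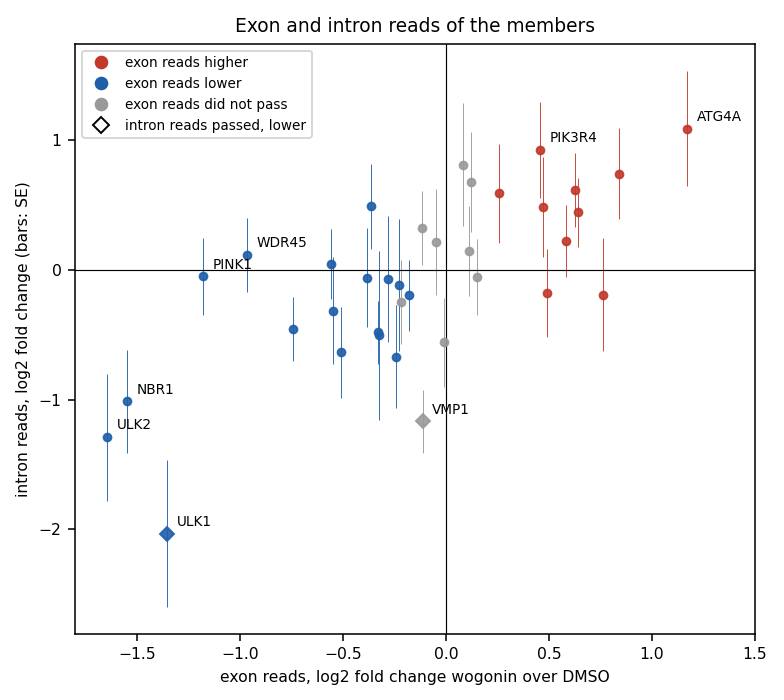
Log2 ratio (wogonin over DMSO) in exon reads (horizontal) and in intron reads (vertical, bars for the standard error) of the 36 members in both fits. Diamonds mark ULK1 and VMP1, which passed as lower in intron reads, and VMP1 stands at -0.11 in exon reads and -1.17 in intron reads.

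Other genes of the pathway were read from the same fit in 4 lists. In the genes of fusion with lysosomes 11 of 17 rose, 2 fell and 4 were not called. These are 64.7% higher and 11.8% lower, beside 32.3% and 31.5% of all genes, and the median log2 ratio was 0.42 beside -0.00066 for all genes. SNAP29, a fusion SNARE, averaged 118 ± 1.81 CPM in wogonin and 49.2 ± 3.89 CPM in DMSO (SD, n = 2 each), a log2 ratio of 1.27 (edgeR adjusted p = 1.1e-09). Of its exon reads 62.25% were uniquely placed, with a value of 1.17 in those reads, and in junction reads it was 0.85. The SNARE YKT6 rose by 0.79, the late endosome GTPase RAB7A by 0.68 and the lysosomal membrane protein LAMP1 by 0.75. LAMP2, named after its value was seen, rose by 0.18 (edgeR adjusted p = 0.044). Its call was lost with DESeq2, with no filter and with library totals or upper quartiles as the scaling. It was also lost with the length trend removed, in total and unique gene reads and without any 1 library. Without wogonin 3, wogonin 4, DMSO 1 or DMSO 2 the values were 0.18, 0.18, 0.19 and 0.14. In junction reads LAMP2 was at 0.37 and passed. The 2 that fell were the SNARE genes VAMP8 (-0.76) and STX7 (-0.25), named after their values were seen. The call of STX7 was lost with DESeq2, with the length trend removed, in junction reads and without wogonin 3 or DMSO 2.

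In the list of other machinery 7 of 16 tested genes rose, 2 fell and 7 did not pass, with a median of 0.25. That is 43.8% higher and 12.5% lower, and the 56.2% called lie below the 63.8% of all genes. SMCR8, a partner of C9orf72, rose by 0.93, RUBCN, an inhibitor of autophagosome maturation, by 0.67, SH3GLB1, a BECN1 partner, by 0.62 and WDR45B, or WIPI3, by 0.47 (0.29 in unique gene reads). In junction reads SH3GLB1 was at 0.03 and did not pass (edgeR adjusted p = 0.79). WDR41 (-0.55) and TMEM41B (-0.23) fell, and they were named after their values were seen. TMEM41B was at 0.07 in junction reads, and its call was lost there, in total and unique gene reads and without wogonin 3 or DMSO 2. Intron reads of TMEM41B went the other way, at 182 and 156 in wogonin 3 and 4, against 54 and 54 in DMSO 1 and 2. Their log2 ratio was 1.36 (edgeR adjusted p = 0.0027).

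Of 20 other receptors 8 rose, 6 fell and 6 did not pass, with a median of 0.06. The shares, 40% higher and 30% lower, are near the 32.3% and 31.5% of all genes and say nothing about receptors as a group. CCPG1, a receptor for the endoplasmic reticulum, averaged 45.5 ± 1.31 CPM in wogonin and 142 ± 16.2 CPM in DMSO (SD, n = 2 each), a log2 ratio of -1.64 (edgeR adjusted p = 4.1e-10). Of its exon reads 1.73% were uniquely placed, and its value in those reads was -0.87 (edgeR adjusted p = 0.038), while in junction reads it was -1.64. BNIP3L, a mitophagy receptor also called NIX, averaged 46.7 ± 2.09 CPM in wogonin and 113 ± 0.82 CPM in DMSO (SD, n = 2 each), a log2 ratio of -1.27 (edgeR adjusted p = 7.6e-10). ATL3, which acts on tubules of the endoplasmic reticulum, rose by 1.00 and TOLLIP, an adaptor for ubiquitylated cargo, by 0.95.

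Among 14 tested regulators 4 rose, 5 fell and 5 did not pass, with a median of -0.11. The shares, 28.6% higher and 35.7% lower, are likewise near those of all genes. The forkhead factors FOXO1, FOXO3 and FOXO4, which are known to induce autophagy genes, fell, with log2 ratios of -1.62, -1.19 and -3.52 (edgeR adjusted p = 1.4e-07, 1.1e-08 and 1.4e-07). FOXO1 did not pass in junction reads (value -1.24, edgeR adjusted p = 0.072). The ratio of FOXO4 rests on 5 and 8 exon reads in wogonin 3 and 4, against 83 and 86 in DMSO 1 and 2. FOXO4 had 0 and 2 junction reads in wogonin 3 and 4, against 13 and 7 in DMSO 1 and 2. The GTPase gene RRAGD rose by 0.73. TFEB and TFE3, master factors of lysosome genes, had values of -0.10 and -0.13 and did not pass. With library totals or upper quartiles as the scaling TFE3 was at -0.22 and passed. The sign of TFEB, with few reads, turned without wogonin 4 (0.24) or DMSO 2 (0.19). The gene MITF of the same family had 1 and 0 reads in wogonin 3 and 4, against 18 and 11 in DMSO 1 and 2. These 3, and FLCN, FNIP1 and RRAGC, which rose, and RRAGB, which fell, were named after their values were seen. FLCN, of whose exon reads 27.4% were uniquely placed, was at -0.01 in those reads, and its call was lost in 9 of 16 other settings. RRAGC lost its call in junction reads, at 0.18, and without wogonin 4.

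**Figure D5:**
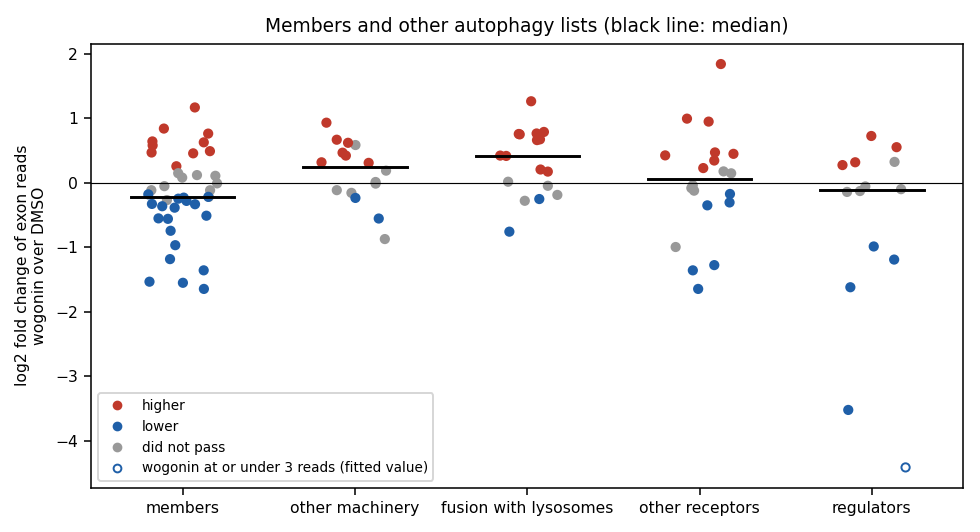
Log2 ratio of exon reads (wogonin over DMSO) for the members and the 4 other lists, 1 point per tested gene, with black lines at the medians. The median of the fusion list is 0.42 and that of the members -0.22, and the open point is MITF, whose fitted value rests on 1 and 0 reads in wogonin.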

How the data were processed

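RNA of A2780 cells was sequenced in 4 libraries. The authors deposited 1 table per library, and per the file headers it holds raw read counts per gene in exons, exon junctions and introns, in total and uniquely placed, with TPM and RPKM computed by the authors and a fraction of unique over total and of intron over gene reads. No source used here gives the aligner, counting program, annotation release or strand setting, and the submitters' processing notes name GRCh37 and hg19. Total exon counts entered the quasi-likelihood test of edgeR 4.0.16 under R 4.3.3 (treatment as the term, TMM scaling, filterByExpr, robust fit, 2-sided, Benjamini-Hochberg over all genes, threshold 0.05), and intron counts of genes with exons likewise. TPM served for levels between genes, and RPKM and the fractions were not tested. The SE is the log2 fold change over the square root of F. CPM are TMM-scaled, and 3 counts, the floor, were worth 0.253 to 0.273 CPM. Intervals and floors cover counting error only. No 2 libraries were copies: the chi-square per degree of freedom was 6.77 for the wogonin pair, 2.86 for the DMSO pair and at least 51.7 across groups.

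Members and lists were chosen with earlier results of these data known. Library values are given for members past the threshold with a log2 change of at least 0.5 and no overlap, for all ATG8 genes and receptors, and for ULK1, ULK2, BECN1, ATG5, ATG7, TBK1 and PINK1, and of each other list up to 4 genes with the smallest adjusted p. Values of other members were added. BECN2, STBD1 and PECAM1 matched no row by the names used and were not analysed here. Promoters came from RefSeq (GRCh38.p14) and matched 34 of 40 members by symbol. Simulated counts had 100 genes changed at each of 2 sizes, 0.5 and 1 log2 unit. Over 13449 genes the exon test recovered 60% and 81% of them, and over 10495 genes the intron test recovered 1% and 6%. The real fits called 63.8% and 20.1% of genes. The Benjamini-Hochberg cut-off depends on the share of changed genes, so these rates do not carry over to the real counts. A member without an intron call is not shown to be unchanged. DESeq2 1.42.0 and limma-voom (limma 3.58.1) were alternatives, beside other scalings, filters and count columns, removal of an exon length trend (span 0.3) and leaving out each library. Junction reads were added after seeing the data.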

Additional observations from a re-analysis of the deposited data

How the results depend on the processing

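Of the 29 members called in exon reads, 20 (8 higher and 12 lower) kept their call and sign in all 16 other settings that test at the same size. ATG7, ATG12, ATG13, ATG2A, ATG4C, ATG10, GABARAP, SQSTM1 and OPTN lost it in at least 1, and no called member changed sign in these settings. Of the called genes of the other lists, TMEM41B turned to 0.070 in junction reads, and FLCN to -0.012 in unique exon reads and -0.080 in unique gene reads, without passing there. DESeq2 called 12 members lower. Without 1 library at a time, exon calls of members ran from 9 to 10 higher and 13 to 16 lower, of all genes from 3613 to 4111 higher and 3516 to 4055 lower, of other machinery from 6 to 7 higher and 1 to 2 lower, of fusion genes from 9 to 10 higher and 1 to 2 lower, of other receptors from 7 to 8 higher and 5 to 7 lower, and of regulators from 2 to 5 higher and 4 to 5 lower. Intron calls of members ran from 0 to 5 higher and 0 to 7 lower without 1 library, and DESeq2 called 1 lower. A size of at least 1 log2 unit left 849 of all genes higher and 1337 lower, and 1 member higher and 5 lower. In the same order it left 0 and 0 of other machinery, 1 and 0 of fusion genes, 1 and 3 of other receptors, and 0 and 4 of regulators. The lower count of other machinery was 1 in total and in unique gene reads. That of fusion genes was 1 with DESeq2, with the length trend removed and in junction reads. In junction reads 2 regulators were higher and 2 lower. The cause of these moves was not tested, apart from the size threshold, which removes smaller calls by construction. With library totals or upper quartiles as the scaling, 22 members were lower at a median of -0.09 over all genes. No paired analysis was possible because the libraries of the groups share no replicate number. MAP1LC3A lay under the filter on low exon counts, and 4 members lay under that on intron counts, so no change could be read for them there.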

Other observations

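Of the members, 19 overlapped another tested gene in the deposited coordinates, in 21 pairs. The share over all overlapping genes was not computed, so the pairs below are values only. PINK1-AS averaged 40.3 ± 3.06 CPM in wogonin and 16.5 ± 0.57 CPM in DMSO (SD, n = 2 each), with a log2 ratio of 1.29 (wogonin over DMSO, edgeR adjusted p = 3.2e-08), while PINK1 fell by 1.18. SQSTM1 fell beside MGAT4B, a glycosyltransferase gene that rose by 0.55, and TAX1BP1 beside JAZF1, which rose by 0.42. ATG10, whose value was -0.33, overlaps the ribosomal protein gene RPS23, which rose by 0.52, and ATG7 rose beside VGLL4, which fell by 0.56. In 8 pairs both genes were called, these 5 in opposite directions and 3 in the same direction. Those 3 were ATG9A with ABCB6 (log2 ratio of the partner 0.92), MAP1LC3B with FBXO31 (0.27) and ATG13 with HARBI1 (-0.78). Whether reads of a partner enter a member's count was not tested beyond the uniquely placed and junction reads given above.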
